A study of Mus musculus with 8 samples.

Results

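The 9 transmembrane adenylyl cyclases of the mouse, Adcy1 to Adcy9, were followed in ribosome-bound RNA of mu-opioid receptor (MOR)-expressing neurons from dissections aimed at the paraventricular nucleus of the thalamus (PVT). They were picked by gene symbol, with 1 transcript row per gene (the row with the highest total over all libraries), and all 9 were among the 18939 genes of the counts table. Every library came from OPRM1cre X EGFP-L10a mice on a C57BL/6J background, 8 to 12 weeks old at the start. In these mice Cre expressed from the Oprm1 gene switches on a tagged ribosomal protein (EGFP-L10a) that is then pulled down with anti-GFP antibodies (translating ribosome affinity purification, TRAP). The 4 control libraries came from mice that drank 0.2% saccharin and the 4 morphine libraries from mice that drank morphine in 0.2% saccharin, raised to 0.5 mg/ml, for 11 days. Each library pooled gross dissections of 2 mice of one sex. Each group had 2 male libraries (control 1 and 2, morphine 3 and 4) and 2 female libraries (control 5 and 6, morphine 7 and 8) by label. The sex of control 5 is in doubt, because it holds counts of Y-linked genes. The tag marks any cell that has ever expressed Oprm1, so neurons of neighbouring areas with that history, if caught in the dissection, are not removed by the pull-down. In such bulk RNA, fewer cells of a type and less RNA per cell cannot be told apart.

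Adenylyl cyclases are membrane enzymes that make the second messenger cAMP from ATP. All are switched on by the stimulatory G protein Gs, and they differ in their other inputs. Adcy1, Adcy3 and Adcy8 are regulated by calcium and calmodulin, and Adcy2, Adcy4 and Adcy7 are stimulated by G protein βγ subunits when Gs is active. Adcy5 and Adcy6 are inhibited by Gi and by calcium, and Adcy9 responds poorly to the plant compound forskolin that activates the others. MOR couples to Gi and lowers cAMP when an opioid binds, whereas prolonged opioid exposure is known to raise cyclase activity in many cells, an adaptation called superactivation. The question for each isoform was whether its ribosome-bound RNA differed between morphine and control mice.

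A stretch of the first cytoplasmic catalytic domain is printed for all 9 members, because it shows how alike the isoforms are at the RNA level and hence how well short reads tell them apart. Each line holds 57 coding bases of the transcript counted for that gene, taken from GENCODE M21 (GRCm38) and printed 5′ to 3′, with capitals for the 20 bases that are the same in all 9.
Adcy1: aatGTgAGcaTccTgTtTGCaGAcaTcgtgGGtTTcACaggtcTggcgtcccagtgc
Adcy3: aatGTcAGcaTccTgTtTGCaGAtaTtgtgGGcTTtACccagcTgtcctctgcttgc
Adcy8: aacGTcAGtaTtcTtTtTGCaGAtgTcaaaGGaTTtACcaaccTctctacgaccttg
Adcy2: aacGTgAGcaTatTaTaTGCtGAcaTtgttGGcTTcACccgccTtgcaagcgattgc
Adcy4: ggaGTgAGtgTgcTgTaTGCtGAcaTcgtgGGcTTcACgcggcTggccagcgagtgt
Adcy7: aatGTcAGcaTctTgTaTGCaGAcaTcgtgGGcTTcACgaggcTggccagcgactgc
Adcy5: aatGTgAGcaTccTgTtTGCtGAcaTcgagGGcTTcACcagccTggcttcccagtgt
Adcy6: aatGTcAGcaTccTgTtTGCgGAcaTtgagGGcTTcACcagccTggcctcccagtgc
Adcy9: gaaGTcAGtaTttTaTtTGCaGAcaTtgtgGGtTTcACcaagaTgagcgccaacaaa
In 8 members the stretch crosses an exon junction, as in Adcy1, where it runs from exon 3 to exon 4 (chr11:7100681-7109049, plus strand, with the intron between), and in Adcy9 it lies within exon 2 (chr16:4418316-4418372, minus strand). No pair of the 9 counted transcripts shared an identical run as long as a 50-base read: over the 36 pairs the longest identical run was 33 bases (Adcy4 and Adcy8) and the median was 20. Over the whole proteins translated from these coding sequences, the 7 pairs within a regulator class were identical at 35.1% to 67.2% of the residues of the shorter protein (median 53.0%), and the 29 other pairs at 27.2% to 41.2% (median 37.2%). Adcy5 and Adcy6 were the most alike (67.2%), followed among the class pairs by the βγ-stimulated Adcy2 and Adcy4 (57.5%), whereas the calcium-regulated Adcy1 and Adcy8 shared 39.5%.

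Total counts, with 1 row per gene, lay between 31151103 and 47582947 per library. All values below are CPM, the counts of a gene scaled to the TMM-normalized library size, computed from the deposited counts. A level compared between genes is CPM per kilobase of transcript, since the 9 counted transcripts ran from 3444 bases (Adcy4) to 12259 bases (Adcy1). Of the 9 members, 8 reached 10 counts in each library and passed edgeR's filterByExpr, and Adcy4 did neither. A gene is said to be called where edgeR's quasi-likelihood test, fitted on all 18939 genes with condition in the model, gave a Benjamini-Hochberg adjusted P under 0.05.

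In the control libraries the family was led by 2 isoforms of different classes. Adcy5 stood at 29.6 ± 8.13 CPM per kilobase (SD, n = 4) and Adcy1 at 29.0 ± 3.30, each above about 85% of all genes (percentiles 85.6 and 85.3), and either was the higher in 2 of 4 libraries. Below them came Adcy2 (7.70 CPM per kilobase), Adcy3 (6.74), Adcy8 (5.95), Adcy9 (5.65) and Adcy6 (3.91), and each neighbouring pair in this run had overlapping ranges. Adcy7 (1.69 CPM per kilobase) lay below all of these in 4 of 4 libraries, and Adcy4 (0.0091) was close to undetected. In the morphine libraries Adcy1 (46.5 ± 2.49 CPM per kilobase) was above Adcy5 (34.3 ± 10.5) within each of 4 libraries, although the ranges over libraries overlapped, and Adcy9 (8.20) stood beside Adcy3 (8.16), both below Adcy2 (12.1). Adcy8 (6.12), Adcy6 (4.21) and Adcy7 (1.63) followed without overlap between neighbours. With the longest coding transcript of each gene as the length, the control order was the same, and in morphine libraries Adcy3 (7.78) stood above Adcy9 (7.43).

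**Figure D1:**
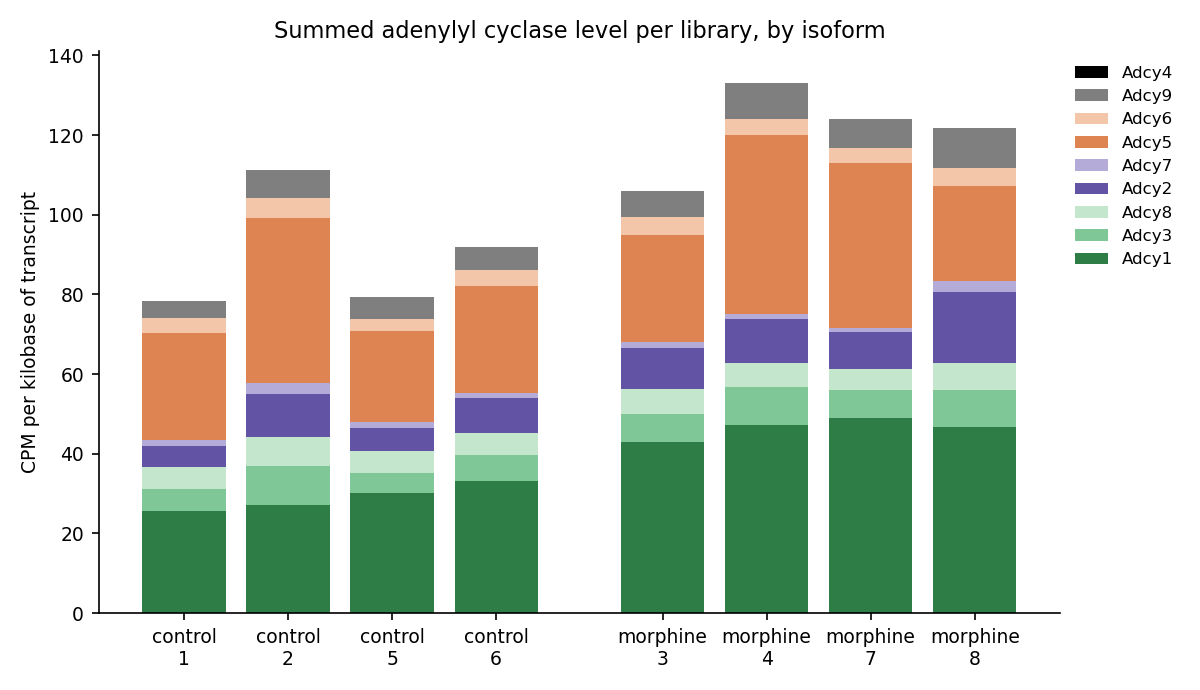
Stacked bars give the level of each adenylyl cyclase in CPM per kilobase of transcript (y axis) in each of the 8 libraries (x axis, replicate numbers as labelled), with shades of green for calcium-regulated, purple for βγ-stimulated and orange for Gi-inhibited isoforms and grey for Adcy9. The summed level ran from 78.4 to 111 in the control libraries and from 106 to 133 in the morphine libraries, and the Adcy4 bar is too thin to see.

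By class, the calcium-regulated isoforms summed to 41.7 ± 3.86 CPM per kilobase in the control libraries (range 36.7 to 45.3, n = 4) and to 60.8 ± 3.06 in the morphine libraries (56.3 to 62.8), so these ranges did not overlap. Most of that sum was Adcy1. The βγ-stimulated isoforms, mostly Adcy2, summed to 9.40 ± 3.10 and 13.8 ± 4.65 CPM per kilobase, and the Gi-inhibited pair, mostly Adcy5, to 33.5 ± 8.93 and 38.5 ± 10.1, both with overlapping ranges. As a share of the family, the calcium-regulated class held 46.7% ± 4.99 in control and 50.3% ± 2.63 in morphine libraries, and the Gi-inhibited class 36.8% ± 4.31 and 31.5% ± 6.40. These shares overlapped between the groups in both classes.

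Of the 9 adenylyl cyclases, 1 was called higher in morphine libraries and 0 lower, against 0.164% of all genes called higher and 0.0317% called lower by edgeR. The called gene was Adcy1. With DESeq2 the count of members was also 1 higher and 0 lower, against 1.71% and 0.94% of all genes, and it was Adcy1 again. At an unadjusted edgeR P under 0.05, 3 members were higher (Adcy1, Adcy2 and Adcy9) and 0 lower, against 6.79% and 5.31% of all genes. Among the 8 members above the floor of 3 counts, 7 had an edgeR log2 fold change above 0 and the median was 0.25, beside a median of 0.0088 over all genes, 51.4% of which were above 0. The groups separated fully for 1 of these 8 members (Adcy1, higher in morphine) and in the other direction for 0, against 3.34% and 3.21% of all genes.

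**Figure D2:**
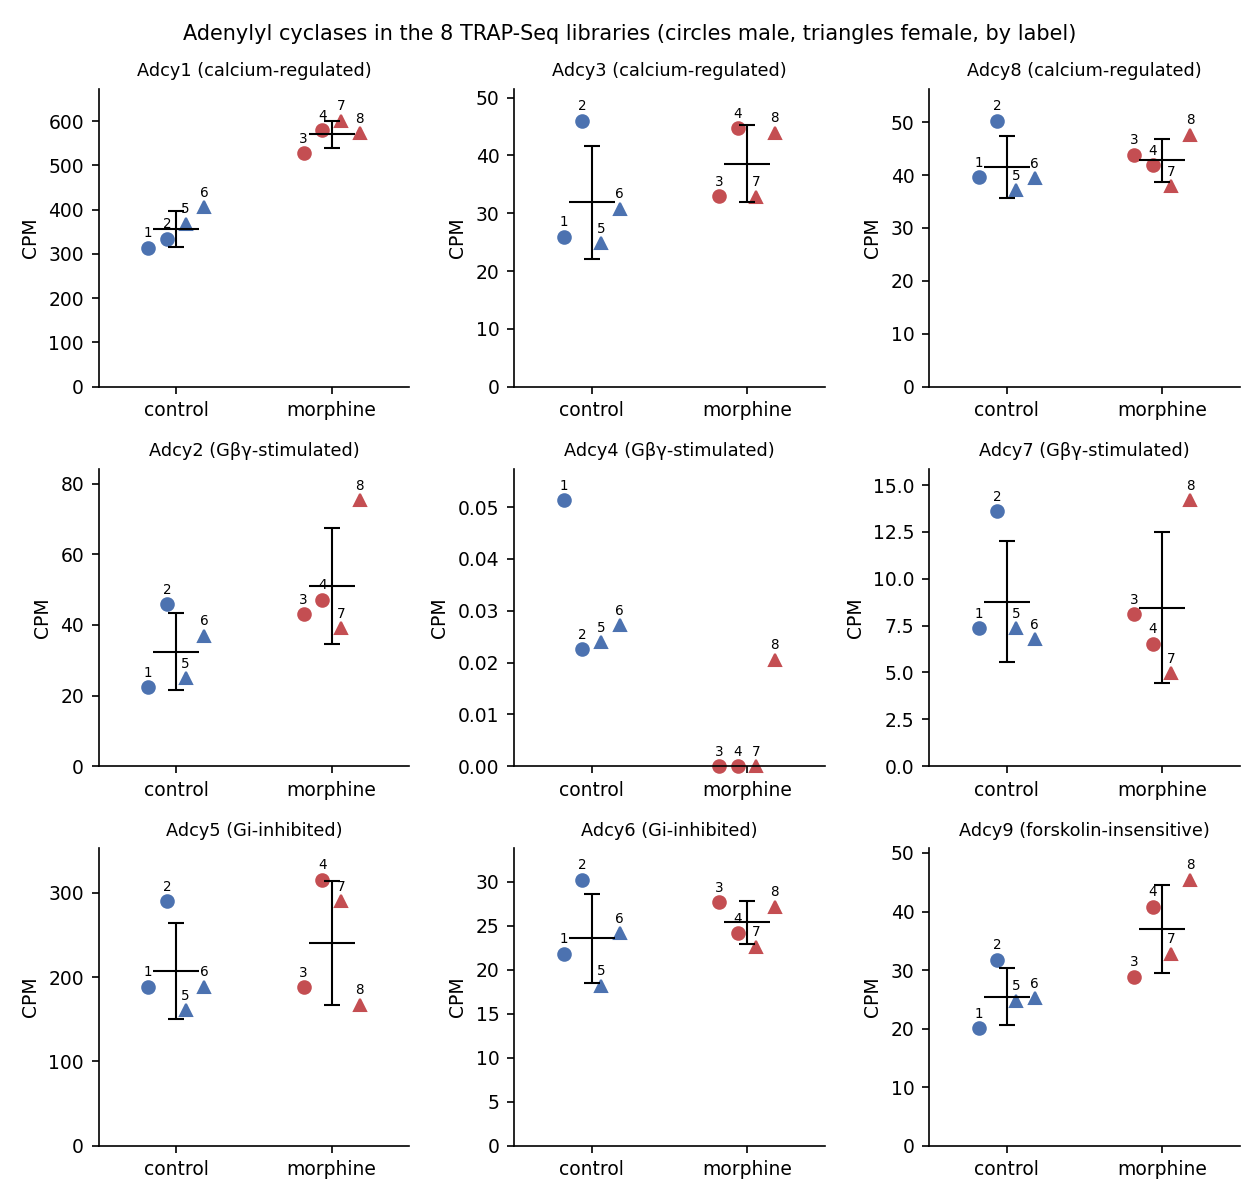
Each panel shows 1 adenylyl cyclase in CPM (y axis, from 0) in control (blue) and morphine (red) libraries, with circles for male and triangles for female libraries by label, replicate numbers beside the points, and black bars for the mean ± SD of 4 libraries. Adcy1 is the panel in which the groups separate (314 to 406 against 528 to 601 CPM), while Adcy5 is highest in control 2, morphine 4 and morphine 7. Adcy4 is drawn without mean or SD, since no library held more than 2 counts of it.

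Adcy1, the neuronal calcium/calmodulin-stimulated cyclase known for its part in synaptic plasticity, had 314 CPM in control library 1, 334 in control 2, 368 in control 5 and 406 in control 6. It had 528 in morphine library 3, 579 in morphine 4, 601 in morphine 7 and 572 in morphine 8. Every morphine library stood above every control library, and the spread within each group was small beside the gap between them (coefficients of variation of 11.4% and 5.36%). It rose by a log2 fold change of 0.68 (SE 0.10, 95% interval 0.45 to 0.91, a ratio of 1.60), with an adjusted P of 0.0416 by edgeR, and DESeq2 gave 0.68 (SE 0.11) with an adjusted P of 4.4e-07. The gene (Entrez 432530) lies at chr11:7063433-7178506 on the plus strand of GRCm38 in 20 exons, it has 1 row in the table, and no other annotated gene overlaps its exons. It was called without control 6 or without morphine 3, but not without control 1, 2 or 5 or without morphine 4, 7 or 8 (adjusted P by edgeR between 0.0507 and 0.132, and 0.0599 without control 5), although its log2 fold change stayed between 0.61 and 0.73. Over the whole table edgeR called 37 genes with all 8 libraries, 1 without control 1, 36 without control 2, 20 without control 5, 0 without morphine 4, 11 without morphine 7 and 0 without morphine 8. It also missed the threshold after filterByExpr (adjusted P = 0.0517 by edgeR), where 14 genes were called. With marker scores of other cell types in the model its log2 fold change was 0.42 (telencephalic, adjusted P = 0.847 by edgeR) or 0.48 (choroid plexus, adjusted P = 1).

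Adcy8, the other calcium/calmodulin-stimulated neuronal cyclase, had 39.6, 50.2, 37.2 and 39.4 CPM in control libraries 1, 2, 5 and 6. Morphine libraries 3, 4, 7 and 8 had 43.9, 41.9, 37.9 and 47.6 CPM. The groups overlapped almost wholly. Its log2 fold change was 0.042 (SE 0.12, 95% interval -0.22 to 0.30, edgeR adjusted P = 0.911), with an interval that lies below the one of Adcy1. Adcy8 (Entrez 11514) lies at chr15:64699035-64922296 on the minus strand.

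Adcy3, best known as the cyclase of olfactory neurons and of primary cilia on neurons, had 25.9, 45.97, 24.8 and 30.8 CPM in control libraries 1, 2, 5 and 6. The values were 32.9, 44.7, 32.8 and 43.9 CPM in morphine libraries 3, 4, 7 and 8. Control 2 was the highest of all 8, and the other control libraries lay below every morphine library. The log2 fold change was 0.28 (SE 0.19, 95% interval -0.15 to 0.70, edgeR adjusted P = 0.614). Adcy3 (Entrez 104111) lies at chr12:4133116-4213525 on the plus strand, with 3 rows in the table, and 1380 bases of its exons overlap exons of Cenpo on the other strand, so its counts are uncertain if strand was not used.

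Adcy2, the βγ-stimulated isoform that is widespread in the brain, had 22.3, 45.8, 24.8 and 36.9 CPM in control libraries 1, 2, 5 and 6. In morphine libraries 3, 4, 7 and 8 it had 43.1, 47.1, 39.0 and 75.2 CPM. Morphine 8 was the highest of the 8 and control 2 overlapped the morphine range. The log2 fold change was 0.66 (SE 0.25, 95% interval 0.11 to 1.21), close to that of Adcy1 in size but with more than 2 times its error, and the edgeR adjusted P was 0.320. Adcy2 (Entrez 210044) lies at chr13:68620043-68999600 on the minus strand, and the antisense gene Gm35161 overlaps 189 bases of its exons.

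Adcy7, a βγ-stimulated isoform found in microglia and blood cells as well as in neurons, had 7.36, 13.6, 7.36 and 6.79 CPM in control libraries 1, 2, 5 and 6. Morphine libraries 3, 4, 7 and 8 had 8.12, 6.54, 4.97 and 14.2 CPM. One library in each group (control 2 and morphine 8) stood well above its fellows, so the spread within the groups exceeded the difference between them. The log2 fold change was -0.049 (SE 0.32, 95% interval -0.74 to 0.64, edgeR adjusted P = 0.974), the widest interval of the 8. Adcy7 (Entrez 11513) lies at chr8:88272190-88329965 on the plus strand and has 4 rows in the table.

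Adcy4, the third βγ-stimulated isoform and one known from endothelium and other peripheral tissues, had 2, 1, 1 and 1 reads in control libraries 1, 2, 5 and 6, and 0, 0, 0 and 1 reads in morphine libraries 3, 4, 7 and 8. All 8 libraries were at or under the floor of 3 counts, so no fold change is given and its lower CPM in morphine libraries is not counted among the differences. Adcy4 (Entrez 104110) lies at chr14:55769056-55784095 on the minus strand.

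Adcy5, the Gi-inhibited cyclase that dominates in striatal medium spiny neurons, had 189, 290.2, 161 and 189 CPM in control libraries 1, 2, 5 and 6, and 188, 315 and 290.2 CPM in morphine libraries 3, 4 and 7 with 167 CPM in morphine 8. It was high in 3 libraries, 1 control and 2 morphine, and between 161 and 189 CPM in the other 5. Between the groups the log2 fold change was 0.21 (SE 0.23, 95% interval -0.28 to 0.71, edgeR adjusted P = 0.714). Adcy5 (Entrez 224129) lies at chr16:35154494-35305743 on the plus strand.

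Adcy6, the Gi-inhibited partner of Adcy5 that many tissues express, had 21.8, 30.2, 18.2 and 24.1 CPM in control libraries 1, 2, 5 and 6. The values were 27.7, 24.2, 22.6 and 27.2 CPM in morphine libraries 3, 4, 7 and 8. Both the highest and the lowest of the 8 were control libraries. Morphine and control libraries differed by a log2 fold change of 0.11 (SE 0.15, 95% interval -0.22 to 0.43, edgeR adjusted P = 0.803). Adcy6 (Entrez 11512) lies at chr15:98589978-98610287 on the minus strand, and the antisense gene Gm29331 overlaps 605 bases of its exons.

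Adcy9, the isoform least sensitive to forskolin, had 20.0, 31.8, 24.8 and 25.2 CPM in control libraries 1, 2, 5 and 6. In morphine libraries 3, 4, 7 and 8 it had 28.8, 40.8, 32.8 and 45.4 CPM. Morphine 3 was the one morphine library within the control range, below control 2. The log2 fold change was 0.54 (SE 0.17, 95% interval 0.17 to 0.91), with an edgeR adjusted P of 0.227 and a DESeq2 adjusted P of 0.0796. Adcy9 (Entrez 11515) lies at chr16:4284886-4437236 on the minus strand.

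**Figure D3:**
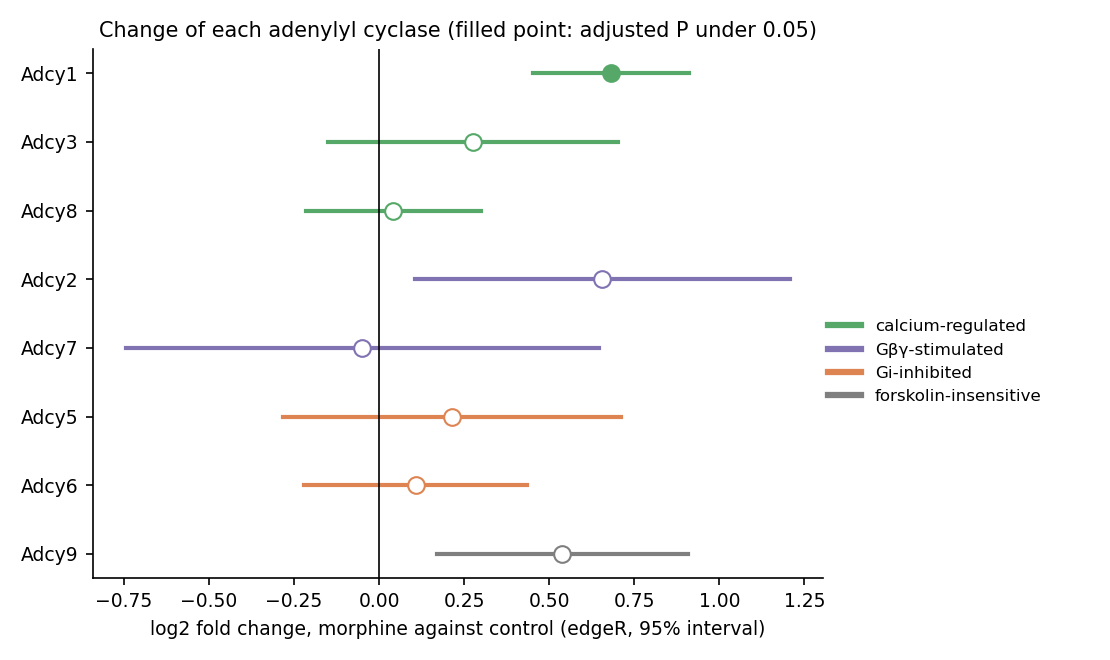
Points give the edgeR log2 fold change of morphine against control (x axis) for the 8 adenylyl cyclases above the count floor (y axis), lines give the 95% interval, colours give the regulator class, and a filled point marks an adjusted P under 0.05. Adcy1 (0.68) is the one filled point, Adcy2 (0.66) and Adcy9 (0.54) also have intervals above 0, and the intervals of the other 5 include 0.

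Isoforms of the same class were also set against each other within each library, where library size cancels. Of the 7 pairs, the 2 with Adcy4 gave no ratio above the count floor and stayed in the adjustment, and 5 were tested by an exact two-sided permutation test, for which 4 libraries against 4 allow no P below 0.0286. Per kilobase, Adcy1 exceeded Adcy8 by 2.17, 1.92, 2.50 and 2.55 on the log2 scale in control libraries 1, 2, 5 and 6 and by 2.78, 2.98, 3.18 and 2.78 in morphine libraries 3, 4, 7 and 8. All 4 morphine ratios were above all 4 control ratios, with a mean ratio of 4.88 in control and 7.61 in morphine libraries. The difference of 0.64 on the log2 scale had the smallest exact permutation P that the design allows (P = 0.0286, 0.2 after adjustment over the 7 pairs).

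The other pairs overlapped between the groups. Adcy2 against Adcy7 differed by 0.77 on the log2 scale (exact permutation P = 0.0857, adjusted 0.3), since control 6 (2.74) lay within the morphine range of 2.71 to 3.27 while the other control libraries lay between 1.90 and 2.06. Adcy1 against Adcy3 differed by 0.38 (exact permutation P = 0.2, adjusted 0.35) and Adcy3 against Adcy8 by 0.26 (exact permutation P = 0.171, adjusted 0.35). Adcy5 against Adcy6 differed by 0.072 (exact permutation P = 0.771, adjusted 1), and its morphine libraries split into a high pair (3.49 and 3.46 in morphine 4 and 7) and a low pair (2.55 and 2.41 in morphine 3 and 8) on either side of all 4 control libraries (2.75 to 3.05). After adjustment over the 7 pairs a single fully separated pair reaches 0.2 at best, so this design could not bring any 1 pair past the threshold on its own.

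**Figure D4:**
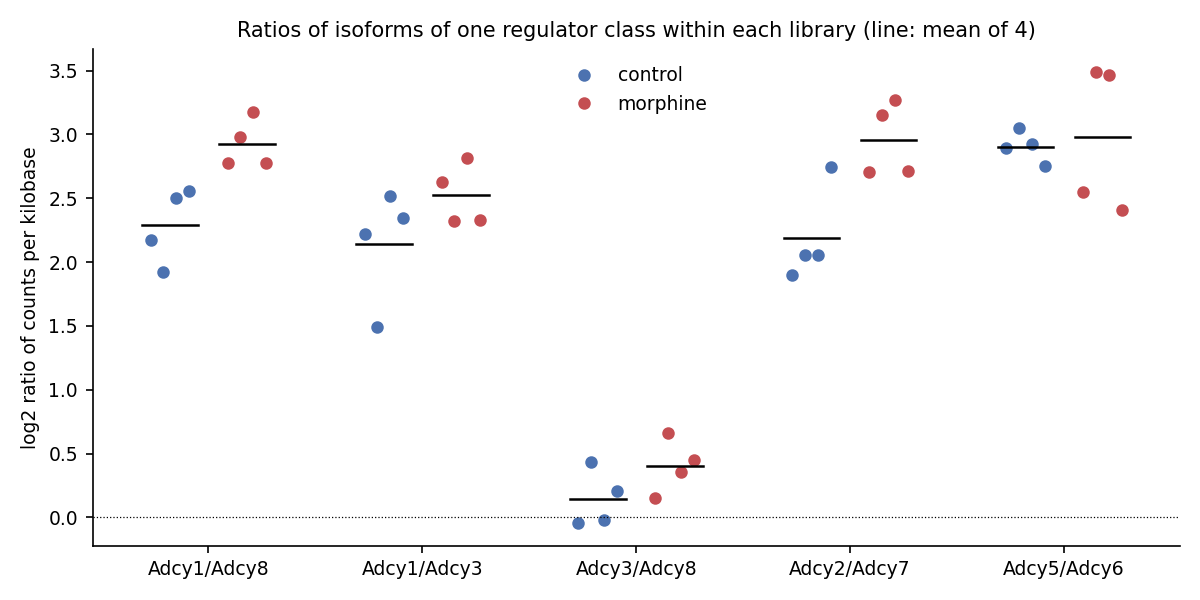
Points give the log2 ratio of counts per kilobase of 2 isoforms of one class (y axis) in each control (blue) and morphine (red) library for 5 pairs (x axis), with black lines for the mean of 4 libraries. Adcy1/Adcy8 is the pair in which no control library reaches the morphine range (2.78 to 3.18), and the morphine libraries of Adcy5/Adcy6 lie above and below the control libraries.

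By the sex on the labels, 0 of the 8 members differed between female and male libraries, against 0.00528% of all genes called by edgeR, and 0 had an unadjusted P under 0.05. The effect of morphine differed between the sexes for 0 members as well, against 0% of all genes, again with 0 at an unadjusted P under 0.05. With 2 libraries per sex and group these tests were coarse. For Adcy1 the mean was 324 CPM in control and 553 CPM in morphine libraries of males and 387 and 586 CPM in those of females, and the interaction was -0.17 on the log2 scale (95% interval -0.66 to 0.32, edgeR adjusted P = 1.00). Adcy7 had the largest interaction (0.96, 95% interval -0.31 to 2.23), with a mean of 10.5 CPM in male control and 7.33 CPM in male morphine libraries, and of 7.08 and 9.58 CPM in the female ones.

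Markers of other cell types moved with some of these values, and their part in them was not tested. A list of 13 telencephalic pyramidal neuron markers summed to between 615 and 1226 CPM in control and between 1365 and 2446 CPM in morphine libraries, with 12 of 13 genes above 0 in log2 fold change, 8 higher at an unadjusted P under 0.05 (6.79% of all genes) and none at 0 counts in any library. The 1 called gene of that list was Bhlhe22, with a log2 fold change of 1.13 (edgeR adjusted P = 0.0176), and Neurod6 (3.32) had an edgeR adjusted P of 0.0569. A list of 13 choroid plexus markers summed to 35.9 to 108 CPM in control and 129 to 401 CPM in morphine libraries, with 12 of 13 above 0, 0 called (0.164% of all genes were called higher), 11 higher at an unadjusted P under 0.05 (again beside 6.79%) and 1 (Kcnj13) at 0 counts in at least 1 library. Of 7 dentate granule neuron markers, 5 were above 0 and 4 higher at an unadjusted P under 0.05, among them C1ql2 (0.98) and Tdo2 (2.47). The mean log2 CPM of this list was 0.79 higher in morphine libraries. Its summed levels overlapped (481 to 596 CPM in control and 448 to 581 CPM in morphine libraries). Most of that sum was Calb1 and Prox1 (304 and 143 CPM in control libraries), which had log2 fold changes of -0.19 and -0.22. All 8 oligodendrocyte markers were above 0 (median 0.65) with 0 at an unadjusted P under 0.05, and their sums ran from 92.6 to 1090.4 CPM in control and from 523 to 1469 CPM in morphine libraries. Above 0 were also 6 of 7 measured habenula and 8 of 9 astrocyte markers, beside 51.4% of all genes, with 1 of each list higher at that unadjusted P. Of 9 microglia markers 3 were above 0, and of 7 endothelial markers 2, with 0 at that unadjusted P. None of these lists held a called gene. With the telencephalic score in the edgeR model the lower value of Adcy1 given above had an unadjusted P of 0.0258, and with the choroid plexus score one of 0.0169. These fits called 1 and 0 of all 18939 genes. Adcy9 had a log2 fold change of 0.25 with the telencephalic and 0.035 with the choroid plexus score, and Adcy2 had 0.24 and -0.24.

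The marker sums of the tissue itself overlapped between the groups, though most of the listed genes were lower in morphine libraries. The mean log2 CPM, morphine minus control, was -0.23 for the thalamic list and -0.27 for the list of PVT and MOR markers. Over all genes, 51.4% had a log2 fold change above 0 and 0.0317% were called lower. A list of 7 thalamic neuron markers, Slc17a6 and Tcf7l2 among them, summed to 2261 to 3035 CPM in control and 1931 to 2944 CPM in morphine libraries, with all 7 log2 fold changes below 0, 0 called and 1 (Gbx2, -0.69) lower at an unadjusted P under 0.05, beside 5.31% of all genes. Thalamic markers were thus present in every library. A list of 7 PVT and MOR markers summed to 485 to 731 CPM in control and 319 to 595 CPM in morphine libraries, with 6 of 7 below 0 (Calb2 at -0.47) and Drd2 above it (0.87), 0 called and 2 lower at an unadjusted P under 0.05, Gal (-1.35) and Oprm1. Oprm1, the gene that drives the Cre, had 25.3 ± 6.92 CPM in control and 16.5 ± 1.95 CPM in morphine libraries (log2 fold change -0.62, edgeR adjusted P = 0.207, n = 4). Beside Adcy5 stands the striatal neuron list, whose 8 measured genes summed to 466, 741, 518 and 400.3 CPM in control libraries 1, 2, 5 and 6 and to 367, 1698, 1435 and 333 CPM in morphine libraries 3, 4, 7 and 8. The 3 libraries with the highest sums, control 2, morphine 4 and morphine 7, were the 3 with the highest Adcy5. All 8 measured striatal markers had a log2 fold change above 0, beside 51.4% of all genes. Of these, 1 (Bcl11b, 0.99) was higher at an unadjusted P under 0.05, beside 6.79% of all genes, and 0 were called, beside 0.164% called higher.

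**Figure D5:**
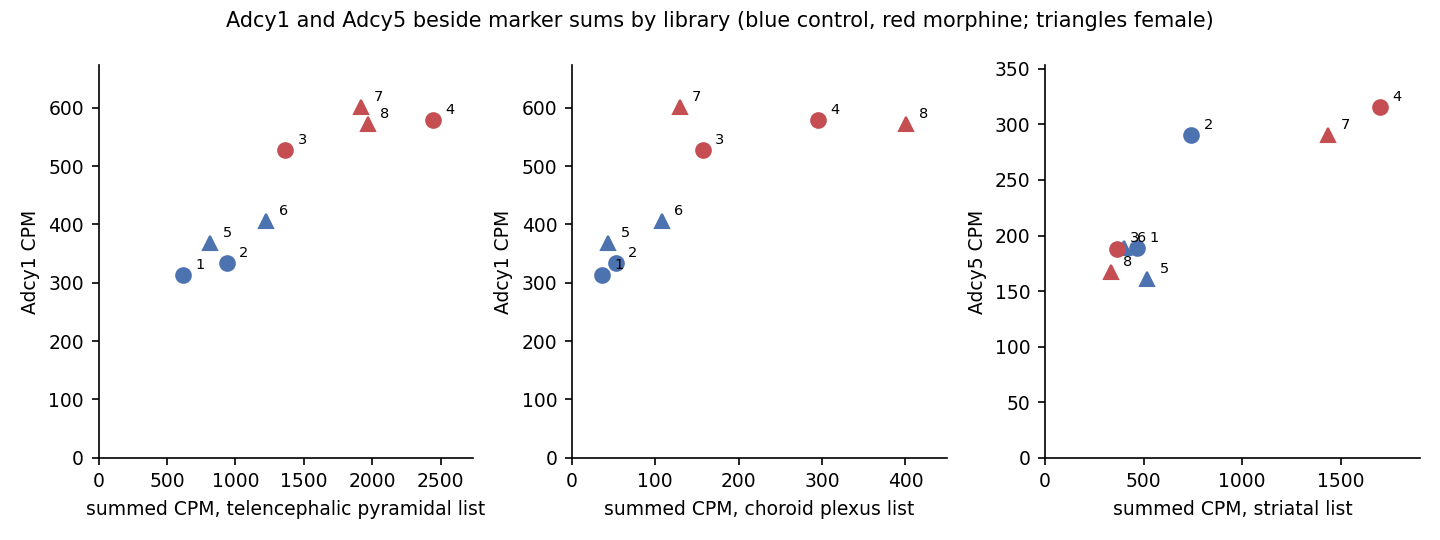
Each point is 1 library (blue control, red morphine, triangles female by label, replicate numbers beside the points), with the summed CPM of a marker list on the x axis and the CPM of Adcy1 (left and middle panels) or Adcy5 (right panel) on the y axis. Adcy1 and the telencephalic and choroid plexus sums are both higher in all 4 morphine libraries than in all 4 control libraries, and Adcy5 is highest in the 3 libraries with the highest striatal sums (741 to 1698 CPM).

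For the most abundant isoform of each class, the genes with the most similar course over the 8 libraries were taken by Pearson r of log2 CPM among the 13703 genes that reached 10 counts in each library. This is a description over libraries that also share condition and dissection. Nearest to Adcy1 were Zfp238 (r = 0.992), Chn1 (0.986) and Fam107b (0.986). Zfp238 (log2 fold change 1.04) and Chn1 (0.66) were called themselves (edgeR adjusted P = 0.0176 and 0.0478). Nearest to Adcy5 were Cacng4 (r = 0.977), Pdyn (0.962) and Dlgap3 (0.961), none of them called. The genes nearest to Adcy2 were Tm7sf3 (r = 0.985), Ssr1 (0.982) and Lmbrd1 (0.982), and those nearest to Adcy9 were Cacna1a (0.998), Lrrc8c (0.990) and Atp8a1 (0.988).

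Around the cyclases, 66 genes of the cAMP pathway in 10 lists were all measured, and 0 were called in either direction, with 6 higher and 3 lower at an unadjusted P under 0.05, 37 with a log2 fold change above 0 and a median of 0.045. Over all genes, edgeR called 0.164% higher and 0.0317% lower. At an unadjusted P under 0.05, 6.79% of all genes were higher and 5.31% lower, and 51.4% were above 0, so these counts were near the background. Among the activators upstream, Gnas, which encodes Gs alpha, stood at 2410 ± 99.0 CPM in control and 2337 ± 329 in morphine libraries (log2 fold change -0.045, n = 4), and Gnal, its close relative of olfactory and striatal neurons, had a log2 fold change of 0.053. The inhibitory alpha subunits Gnai2 (-0.24), Gnaz (-0.24) and Gnai3 (0.12) had edgeR adjusted P values of 0.406, 0.486 and 0.714. Of 15 βγ genes, Gng10 (0.46), Gng5 (0.78, at 14 to 48 counts per library) and Gnb2 (-0.29) had the lowest P values, with edgeR adjusted P between 0.185 and 0.450. Calm2 (0.14) and Calm3 (0.054), which encode the calmodulin that activates Adcy1 and Adcy8, had edgeR adjusted P values of 0.630 and 0.877. The bicarbonate-regulated soluble cyclase Adcy10 had 5 to 15 counts per library.

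Downstream of cAMP, the 6 protein kinase A subunit genes all had a log2 fold change below 0 (median -0.13), where 51.4% of all genes were above 0. Of these 6, 0 were called, beside 0.0317% of all genes called lower. At an unadjusted P under 0.05, 1 (Prkar2a) was lower, beside 5.31% of all genes. The lowest P values were those of Prkar2a (-0.22), Prkar1b (-0.20) and Prkacb (-0.13), with edgeR adjusted P from 0.392 to 0.667. The cAMP-activated exchange factors of the EPAC family differed in sign. Rapgef3 had 26.3 ± 6.63 CPM in control and 16.5 ± 2.22 in morphine libraries (log2 fold change -0.67, edgeR adjusted P = 0.152, n = 4). Rapgef4, the neuronal one, had 134 ± 18.2 and 164 ± 9.39 (0.29, edgeR adjusted P = 0.309). Of 16 phosphodiesterases, which degrade cAMP, the lowest P values were those of Pde4b (-0.29), Pde2a (0.59) and Pde11a (-0.41), with edgeR adjusted P from 0.416 to 0.545. The transcription factors of the CREB family that cAMP activates, Crem (-0.18), Creb1 (-0.17) and Atf1 (0.12), had edgeR adjusted P from 0.588 to 0.707. Among 10 genes of kinases, the phosphatase calcineurin and an anchoring protein that act on cyclases, the calcineurin subunit Ppp3ca (0.74), the protein kinase C gene Prkca (0.80) and Camk2a (0.60) came nearest to a call, with edgeR adjusted P of 0.0962, 0.182 and 0.217.

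Since cAMP signalling acts on promoters through the cAMP response element (CRE), the RefSeq promoters of the members (GRCm38.p6, 250 bases before to 50 after a start) were searched on both strands for the full element TGACGTCA, its core TGACG and, for comparison, the GC box GGGCGG. Promoters were at hand for 7 members, 10 in all (not for Adcy6 and Adcy8). The full CRE was in 0 of these 10 promoters, beside 1.79% of 32851 mouse promoters, the core in 2 of 10 (1 each of Adcy7 and Adcy9), beside 20.8%, and the GC box in 6 of 10, beside 35.7%. The promoter of Adcy1, the isoform that rose, is printed 5′ to 3′ with its 5 GC boxes in capitals (chr11:7063183-7063482, plus strand, 74.0% G and C), of which the last 2 overlap.
Adcy1 promoter: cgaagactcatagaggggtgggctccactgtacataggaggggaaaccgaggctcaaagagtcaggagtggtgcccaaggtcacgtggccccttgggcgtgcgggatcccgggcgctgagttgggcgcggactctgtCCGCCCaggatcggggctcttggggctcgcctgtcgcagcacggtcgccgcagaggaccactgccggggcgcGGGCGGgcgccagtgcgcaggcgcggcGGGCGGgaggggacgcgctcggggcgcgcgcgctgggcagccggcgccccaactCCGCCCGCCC
A match says only that these letters are in the window, and the missing full CRE says nothing of sites elsewhere in the gene.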

How the data were processed

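The authors deposited raw, unnormalized read counts of RefSeq transcripts (24488 rows, 18939 genes) for the 8 libraries. Reads shared by transcripts of a gene may be counted on each. The study's methods describe Salmon and tximport for its own gene-level matrix. The tool that made the transcript counts and its use of strand are not given in the sources used here. The submitters' processing notes name DESeq2 and mm10. The row with the highest total stood for each gene.

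After TMM scaling, edgeR 4.0.16 under R 4.3.3 (glmQLFit, glmQLFTest) tested condition alone on the 18939 genes, with Benjamini-Hochberg adjustment. Sex and its interaction with condition were tested in the same way. Within-library ratios (0.5 added to each count) were tested by exact two-sided permutation (scipy 1.17.1). DESeq2 1.42.0, limma-voom (limma 3.58.1), upper-quartile and RLE scaling, filters (filterByExpr or 10 counts in each library), sex or marker scores in the model, the sum over rows of a gene and each library left out were alternatives. The edgeR step was tested on simulated data. Transcript lengths came from GENCODE M21, matched by RefSeq accession for 18497 genes and by symbol for 292. Counting error and unmarked PCR copies limit genes with few counts.

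Members and gene lists were chosen with earlier results of these data known. Named besides the members were the called genes of each pathway list, up to 3 more per list by lowest P, and the 3 genes most like the leading isoform of each class. Marker genes named as examples were chosen after their values were seen. One of the genes so chosen is not reported here. Groups came from the labels, which give no batch and no pairing between the groups. P values measure the spread between pooled libraries.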

Additional observations from a re-analysis of the deposited data

Results flagged for a closer look

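Each group of 4 libraries was checked for a lone high or low sample by Dixon's test at its 95% level, which chance passes in about 1 group in 20. Of the 28 groups checked, 3 stood out. Adcy7 was highest in control library 2 (13.6 CPM from 604 counts, gap of 0.915 of the range), above the other 3 control libraries (6.79 to 7.36 CPM). Adcy4 was highest in control library 1 (0.051 CPM) and in morphine library 8 (0.021 CPM), which came from 2 counts and 1 count and lie under the floor of 3 counts.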

How the results depend on the processing

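The call of Adcy1 held under 10 of 19 alternatives and was lost under 9, always with a log2 fold change above 0. The count of called members was then 0 in place of 1: with filterByExpr (0.66), with the telencephalic score (0.42) or the choroid plexus score (0.48) in the model, and in 6 of the 8 fits that left out 1 library (0 to 1 called members over these 8). Over all genes these fits called 14, 1 and 0 genes with the filter and the scores and 0 to 36 in the 6 leave-out fits, against 37 with all libraries. Adcy2, Adcy3, Adcy5 and Adcy9 kept a value above 0 in every fit, except that the choroid plexus score gave Adcy2 -0.24 and Adcy3 -0.19. That score also gave Adcy6 -0.090 and Adcy8 -0.096, and the telencephalic score gave Adcy7 0.20. Leaving out single libraries moved Adcy2 from 0.41 to 0.87, Adcy3 from 0.16 to 0.51, Adcy5 from 0.055 to 0.42, Adcy9 from 0.42 to 0.66, Adcy6 from -0.012 to 0.25, Adcy7 from -0.42 to 0.24, Adcy8 from -0.024 to 0.15, the Adcy1 to Adcy3 ratio from 0.16 to 0.51, the Adcy3 to Adcy8 ratio from 0.17 to 0.36 and the Adcy5 to Adcy6 ratio from -0.099 to 0.26. The cause was not tested. None of the values with a changed sign passed the threshold, and the other within-class ratios kept their sign in all 10 alternatives. With 3 libraries against 4 the smallest exact permutation P of a ratio is 0.0571, so these fits say nothing of its stability. Sex and interaction calls stayed at 0 with DESeq2, with filterByExpr and without control 5. No paired analysis was possible because the groups share no replicate numbers.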
